A study of Homo sapiens with 9 samples.

Results

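The genes described here are those of the hypoxia response and of central carbon metabolism in LNCaP cells, a line derived from a lymph node metastasis of human prostate carcinoma, after addition of recombinant NRG1. A list of 41 genes was set out by role, and a gene was kept when at least 10 reads were counted in at least 3 of the 9 libraries. Of the 41 genes, 39 met this rule, out of 19408 of the 37351 genes in the table that did, and the same 39 were among the 19250 genes tested. PDK4 had 1 read over all libraries and SLC2A3 had between 0 and 5 reads per library, and neither was tested. Cells had been held in medium without serum and calcium for 6 to 12 h, NRG1 was then given at 15 ng/mL per the study's protocol, and RNA was sequenced after 0, 12 and 24 h with 3 libraries at each time. All 9 libraries share the cell line, the starvation and the NRG1 label, and no engineered allele was named. The titles call the replicates biological and the cells were plated in triplicate wells, so p-values measure the spread between wells of 1 line. Libraries kept at 12 or 24 h without NRG1 were not analysed here, so NRG1 and the added time without serum cannot be told apart.

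NRG1 is a ligand of HER3, a receptor that signals to PI3K, AKT and ERK together with HER2. The hypoxia-inducible factors (HIF) are transcription factors whose oxygen-regulated subunits, HIF1A and EPAS1, are marked for destruction by prolyl hydroxylases of the EGLN family and by VHL when oxygen is present, and growth factor signals can also raise HIF1A. HIF targets include blood vessel growth factors, carbonic anhydrases, mitophagy genes and most enzymes of glycolysis, which turns glucose into pyruvate and, through LDHA, lactate. Prostate epithelium is known for a citrate-secreting metabolism that is altered in prostate cancer.

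The 0 h libraries held 58267359 to 60985825 counts, those of 12 h 48760003 to 54083444 and those of 24 h 47016302 to 54605125, and levels below are CPM, each count scaled to a fixed TMM-normalised library total. All 8 markers of LNCaP identity, among them KLK3 and FOLH1, were present, with a summed level of 4622 to 4782 CPM in the 0 h libraries, 4398 to 4429 CPM in those of 12 h and 4261 to 4387 CPM in those of 24 h. Of 14 markers of fibroblasts, endothelium, leukocytes, basal and neuroendocrine cells, 6 met the count rule, and their sum was 42.2 to 44.7 CPM in the 0 h libraries, 35.0 to 37.1 CPM in those of 12 h and 34.4 to 36.5 CPM in those of 24 h. COL1A1 (21.4 to 26.3 CPM) and VWF (6.87 to 13.6 CPM) made up most of it, no marker was at 0 in every library, and COL1A2, DCN, PECAM1, PTPRC, CD3E, TP63 and KRT5 had at most 11 reads over all libraries. The part of these markers in the results was not tested. The 24 h replicate 3 stood apart from its group for most members, and counts without it are given with the glycolytic enzymes.

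Expression of the members was mostly slightly higher after NRG1, and the rises were small. The members and all lists below were chosen with earlier results of these data known, so their shares are descriptive. At 12 h, 23 of 39 members rose at an adjusted p of at most 0.05 (edgeR), which is 59.0%, against 10.6% of all tested genes, and the other 16 did not pass. No member fell at 12 h, where 8.16% of all tested genes did; by unadjusted p under 0.05 there were 28 higher and 0 lower, and DESeq2 called 22 higher and 0 lower. The median log2 fold change of the members was 0.14, against -0.01 over all tested genes, and 36 of 39 values were above 0. The 3 libraries at 12 h were all above the 3 at 0 h for 27 members, and 17.5% of all genes showed such a separation upward. No member reached a fold of 1.5 at 12 h in edgeR, also at an unadjusted p under 0.05 or by DESeq2, while 2.37% of all genes passed both thresholds.

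At 24 h, 17 members rose and 1, NDRG1, fell, against 11.6% of all genes that rose and 9.48% that fell, and 21 did not pass. CA12 was the member with a fold of at least 1.5, a threshold that 3.31% of all genes passed with the adjusted p. The median log2 fold change of the members was 0.10, against -0.01 over all genes, and 10 members had all 24 h libraries above all 0 h libraries, against 17.3% of genes. Both comparisons use the same 0 h libraries, and their values are given side by side. Of the 18 calls at 24 h, 6 held in all 22 alternative fits (VEGFA, CA12, SLC16A1, HK2, PFKP and PFKFB3), against 18 of 23 at 12 h.

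Most members are abundant, and abundant genes were called more often. Among the 2106 genes with a mean of at least 100 CPM, 22.7% rose at 12 h and 21.7% at 24 h. Of the 27 members in that class, 20 rose at 12 h and 14 at 24 h. The median log2 fold changes of these 27 members were 0.18 at 12 h and 0.11 at 24 h, and those of all genes in the class were 0.01 at both times.

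**Figure D1:**
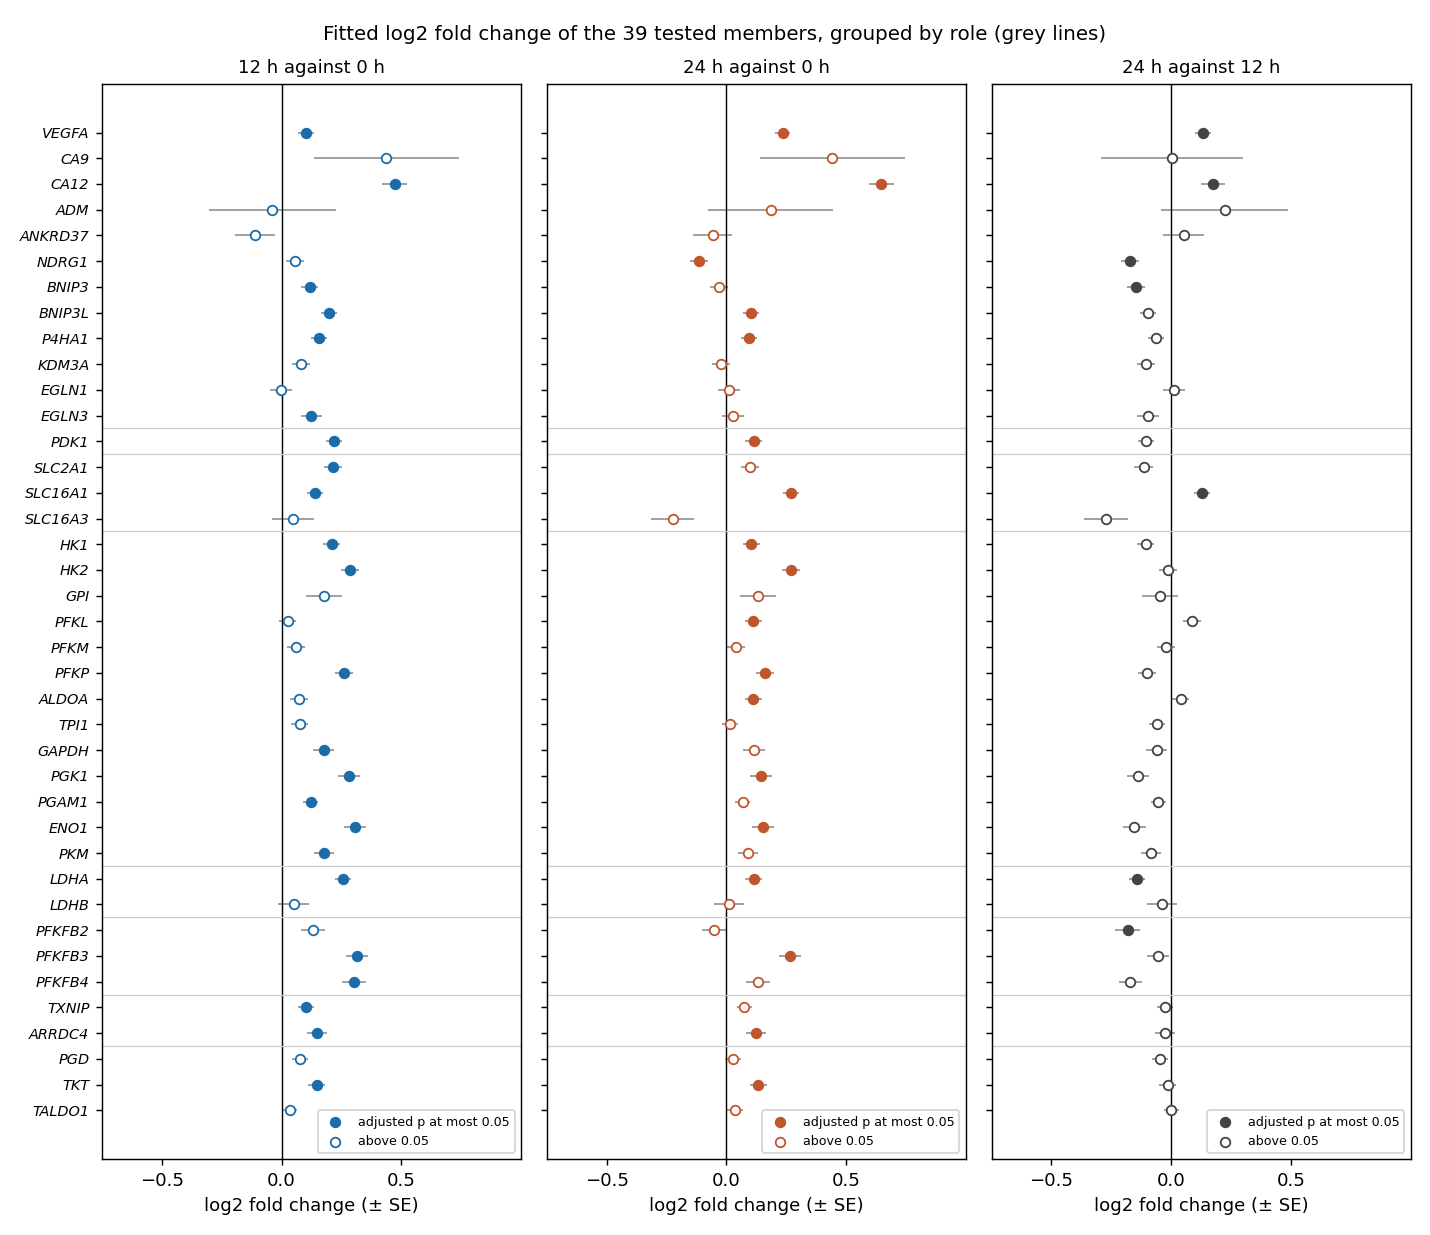
Fitted log2 fold change (x axis) with its standard error (bars) for each of the 39 tested members (y axis, grouped by role) in each of the 3 comparisons (a panel each), with filled points for an adjusted p of at most 0.05. Of the points, 23 are filled at 12 h, 18 at 24 h and 7 in the comparison of both times, and CA12 reaches the largest filled value, 0.65 at 24 h.

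Among the 12 HIF targets outside glycolysis, 6 rose at 12 h (CA12, BNIP3L, P4HA1, EGLN3, BNIP3 and VEGFA), and at 24 h 4 rose (CA12, VEGFA, BNIP3L and P4HA1) and NDRG1 fell. The rises were 50% and 33.3% of the list, against 10.6% and 11.6% of all tested genes. Among genes with a mean of at least 100 CPM, 22.7% rose at 12 h and 21.7% at 24 h. Of all tested genes, 9.48% fell at 24 h. The 4 rises at 24 h became 2 when 0 h replicate 2, 0 h replicate 3 or replicate 1 or 2 of 24 h was left out. CA12, which encodes a membrane carbonic anhydrase that works outside the cell (chr15:63321378-63381846), had 19.6, 19.1 and 20.0 CPM at 0 h, 26.9, 27.9 and 26.6 CPM at 12 h and 31.3, 31.7 and 29.0 CPM at 24 h. The 3 times did not overlap. CA12 rose by 0.47 ± 0.052 (log2 fold change ± SE, adjusted p = 1.3e-08) at 12 h and 0.65 ± 0.052 (adjusted p = 3.8e-12) at 24 h, a fold of 1.39 and 1.57, and both calls held in each of 22 alternative fits.

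VEGFA encodes the main growth factor of blood vessels (chr6:43770184-43786487). Its level was 331, 339 and 347 CPM at 0 h, 352, 378 and 361 CPM at 12 h and 412, 391 and 394 CPM at 24 h. Each time lay above the earlier times without overlap. The rise was 0.10 ± 0.033 (adjusted p = 0.025) at 12 h and 0.24 ± 0.033 (adjusted p = 9.1e-07) at 24 h. The 12 h call was lost without 0 h replicate 1 (adjusted p = 0.069) and without 12 h replicate 2 (adjusted p = 0.17).

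BNIP3 and BNIP3L encode related receptors of mitophagy, the removal of mitochondria. BNIP3 (chr10:131966455-131982013) had 1112, 1003 and 1014 CPM at 0 h, 1142, 1109 and 1143 CPM at 12 h and 1076, 1006 and 983 CPM at 24 h. The 0 h library with 1112 CPM overlapped the 12 h group, and the 24 h group lay within or below the range of the 0 h group. The rise at 12 h was 0.12 ± 0.037 (adjusted p = 0.022), and the value at 24 h was -0.03 ± 0.037 (adjusted p = 0.64). The 12 h call of BNIP3 was lost in 6 of 22 alternative fits, among them those without 0 h replicate 2 or 3 and without 12 h replicate 1 or 3. BNIP3L rose by 0.20 ± 0.033 at 12 h (adjusted p = 2.5e-05) and by 0.10 ± 0.033 at 24 h (adjusted p = 0.024).

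NDRG1, a gene induced by hypoxia and by androgen in prostate cells, moved differently. It had 514, 509 and 539 CPM at 0 h, 533, 539 and 554 CPM at 12 h and 512, 485 and 446 CPM at 24 h. The 24 h libraries were all below the 12 h libraries, and the highest of them overlapped the 0 h group. NDRG1 did not pass at 12 h (0.06 ± 0.037, adjusted p = 0.33) and fell at 24 h (-0.12 ± 0.037, adjusted p = 0.025), a call that was lost without 0 h replicate 3 and without replicate 2 or 3 of 24 h.

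P4HA1, a collagen prolyl hydroxylase subunit, rose by 0.16 ± 0.034 at 12 h and 0.09 ± 0.034 at 24 h (adjusted p = 0.00090 and 0.046), and the 24 h call was lost in 10 of 22 alternative fits, DESeq2 among them. EGLN3, a HIF prolyl hydroxylase that is itself a HIF target, rose by 0.12 ± 0.044 at 12 h (adjusted p = 0.043), a call lost in 7 of 22 alternative fits, while EGLN1, the main HIF prolyl hydroxylase, was at 40.4 ± 1.33, 40.3 ± 1.70 and 40.7 ± 1.28 CPM (SD, n = 3) at 0, 12 and 24 h. KDM3A, a histone demethylase, and ANKRD37 did not pass in any of the 3 comparisons. The remaining targets were near the limit of detection, with CA9, the carbonic anhydrase most used as a hypoxia marker, at 0.497 to 1.07 CPM and 334 reads in all, and ADM, the gene of the vasodilator adrenomedullin, at 0.549 to 0.979 CPM and 401 reads. For CA9 the log2 fold change was 0.44 ± 0.303 at both times (adjusted p = 0.36 and 0.35), and such a difference could not be detected with so few reads. Exons of CA9 and ANKRD37 overlap genes on the opposite strand over 35.7% and 40.3% of their bases (ARHGEF39 and UFSP2, which had more reads), and 55.8% of the exon bases of EGLN1 are shared with another gene annotated on the same strand, so these 3 levels are uncertain.

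**Figure D2:**
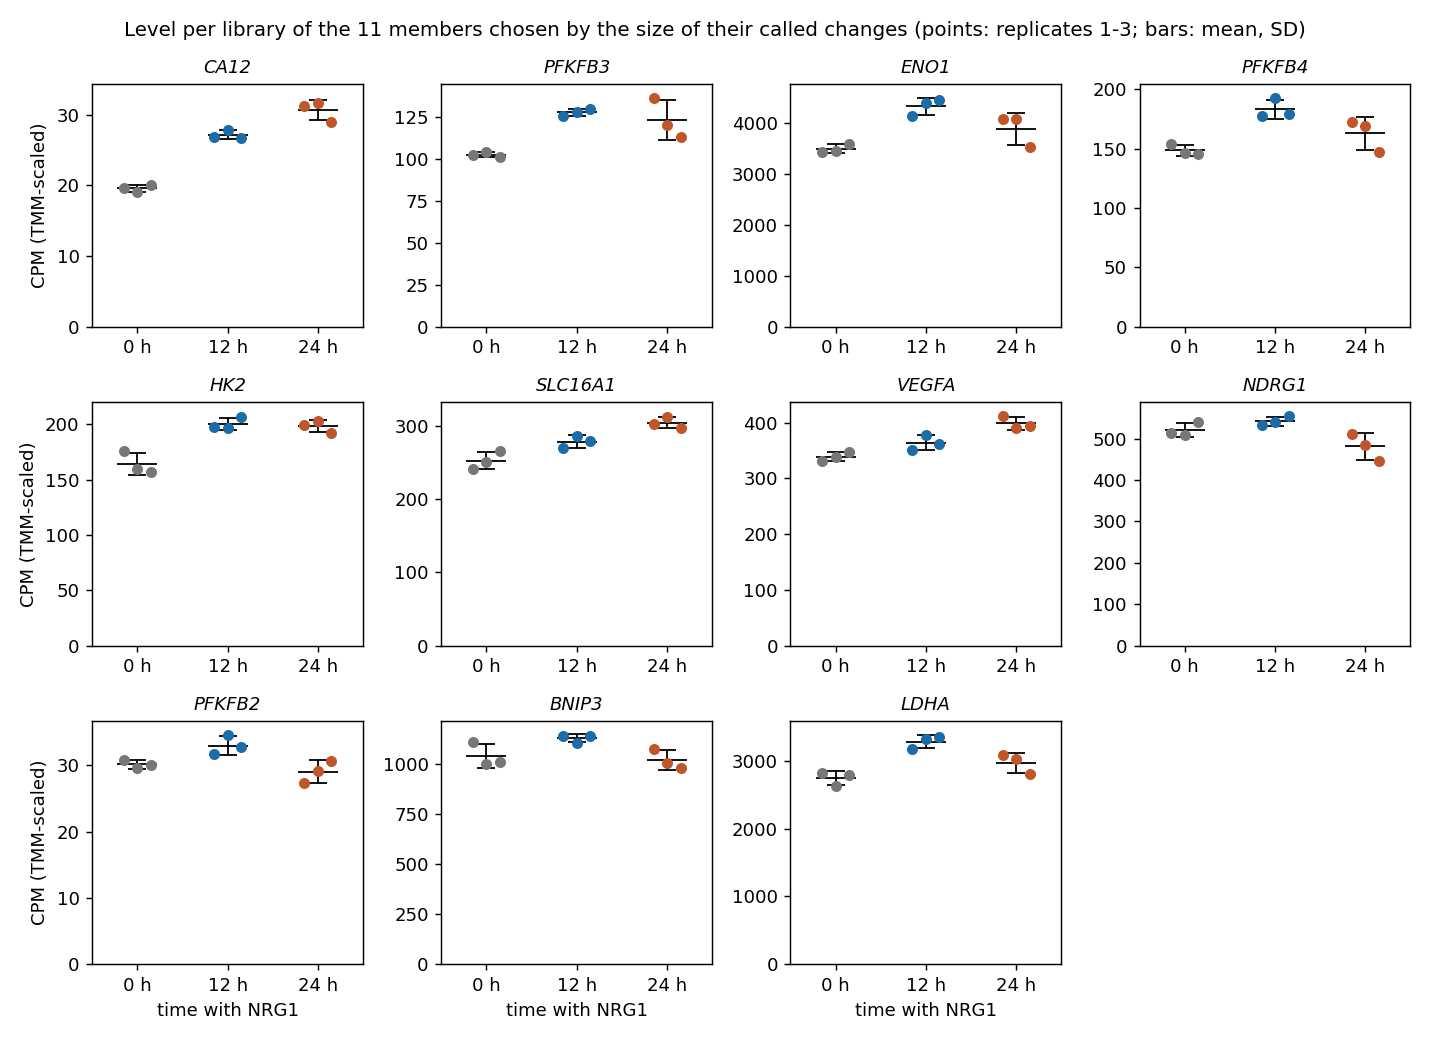
Level of 11 members in each library, in CPM on TMM-scaled totals (y axis, from 0), at 0, 12 and 24 h (x axis); points are replicates 1 to 3 from left to right, and the black marks give the mean and SD of 3 libraries. CA12, VEGFA and SLC16A1 are higher at 24 h than at 12 h, and NDRG1, BNIP3, LDHA and PFKFB2 are lower.

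The promoters of a few of these genes are printed to show the letters that HIF is known to bind. Each printed window holds a match. Of the 41 genes, 35 had a window in RefSeq (GRCh38.p14, 250 bases before to 50 after the start), 63 windows in all. The letters ACGTG and GCGTG were searched on both strands, where they read CACGT and CACGC on the other strand, and capitals mark every match. CA12 is shown for its rise, LDHA, PGK1 and ENO1 as enzymes that rose at 12 h and EGLN1 as a target that did not pass. LDHA had 2 windows, and the window with more matches is given.

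CA12 (chr15:63381797-63382096, minus strand): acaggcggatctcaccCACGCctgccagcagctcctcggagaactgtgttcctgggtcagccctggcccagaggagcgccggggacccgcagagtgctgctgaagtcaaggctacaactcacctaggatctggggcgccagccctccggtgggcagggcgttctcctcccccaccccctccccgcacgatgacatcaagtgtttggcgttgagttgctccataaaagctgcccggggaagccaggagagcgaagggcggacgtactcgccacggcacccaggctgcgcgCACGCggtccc
LDHA (chr11:18394313-18394612, plus strand): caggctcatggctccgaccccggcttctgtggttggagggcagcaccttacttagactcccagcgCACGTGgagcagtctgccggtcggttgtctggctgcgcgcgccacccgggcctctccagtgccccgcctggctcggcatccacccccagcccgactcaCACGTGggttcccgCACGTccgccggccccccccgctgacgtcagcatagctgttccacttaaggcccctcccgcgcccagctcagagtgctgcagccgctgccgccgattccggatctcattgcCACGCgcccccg
PGK1 (chrX:78103998-78104297, plus strand): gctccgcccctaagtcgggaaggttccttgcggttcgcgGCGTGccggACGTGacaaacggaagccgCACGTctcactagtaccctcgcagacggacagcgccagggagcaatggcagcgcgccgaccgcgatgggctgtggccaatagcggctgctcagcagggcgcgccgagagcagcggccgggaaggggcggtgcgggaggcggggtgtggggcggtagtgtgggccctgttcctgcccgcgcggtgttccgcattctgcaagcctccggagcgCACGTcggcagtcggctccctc
ENO1 (chr1:8878637-8878936, minus strand): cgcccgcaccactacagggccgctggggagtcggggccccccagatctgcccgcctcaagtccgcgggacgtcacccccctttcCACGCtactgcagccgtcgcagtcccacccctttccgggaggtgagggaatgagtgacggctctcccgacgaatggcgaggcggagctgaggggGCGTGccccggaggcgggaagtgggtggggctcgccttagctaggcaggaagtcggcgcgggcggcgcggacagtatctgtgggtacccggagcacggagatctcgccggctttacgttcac
EGLN1 (chr1:231422238-231422537, minus strand): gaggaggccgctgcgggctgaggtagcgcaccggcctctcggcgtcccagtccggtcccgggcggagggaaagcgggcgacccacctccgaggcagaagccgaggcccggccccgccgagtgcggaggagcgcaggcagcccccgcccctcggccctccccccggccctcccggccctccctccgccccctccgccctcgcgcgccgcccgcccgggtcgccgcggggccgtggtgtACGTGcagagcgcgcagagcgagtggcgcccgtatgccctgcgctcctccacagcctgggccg

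ACGTG occurred at 5 places in the LDHA window, at 3 in that of PGK1 and at 1 in that of EGLN1, with overlapping matches on the 2 strands counted apart, and the windows of CA12 and ENO1 held GCGTG at 2 places each and no ACGTG. Over all members, 24 of 63 windows (38.1%) held ACGTG and 26 (41.3%) held GCGTG, against 21.4% and 36.5% of all 35116 windows. The median GC content was 68.0% in the members' windows and 58.7% in all windows. Counted per gene, 20 of 35 members (57.1%) held ACGTG in at least 1 window, against 24.9% of all 27305 genes. Of the 20 members with a window that rose at 12 h, 11 held ACGTG in at least 1 window, and of the 14 with a window that did not pass, 9 did. These matches describe the letters only.

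Glucose enters the cell through SLC2A1, and lactate leaves or enters through the monocarboxylate transporters SLC16A1 and SLC16A3. SLC2A1 rose by 0.21 ± 0.039 at 12 h (adjusted p = 8.2e-05), from 129 ± 0.947 to 150 ± 4.71 CPM, with no overlap, and at 24 h was at 149, 138 and 129 CPM with a value of 0.10 ± 0.039 (adjusted p = 0.063). SLC16A1 (chr1:112911847-112957593) had 242, 250 and 266 CPM at 0 h, 269, 287 and 279 CPM at 12 h and 303, 313 and 298 CPM at 24 h, and the 3 times did not overlap. Its rise was 0.14 ± 0.035 (adjusted p = 0.0033) at 12 h and 0.27 ± 0.035 (adjusted p = 1.9e-07) at 24 h. SLC16A3, the transporter that HIF is known to induce, was low, at 7.35 ± 0.267, 7.60 ± 0.332 and 6.29 ± 0.483 CPM, and passed in neither comparison with 0 h (0.05 ± 0.089 and -0.22 ± 0.090, adjusted p = 0.78 and 0.077). SLC16A1 made up 98.0% of the summed level of both transporters per exon length at 0 h and 98.6% at 24 h. Exons of SLC16A3 overlap CSNK1D, which had more reads, on the opposite strand over 5.22% of their bases, so the level of SLC16A3 is uncertain. PDK1, the kinase that shuts pyruvate out of the citric acid cycle by inhibiting pyruvate dehydrogenase, rose from 209 ± 11.4 to 244 ± 1.51 CPM at 12 h (0.22 ± 0.034, adjusted p = 8.8e-06) and was at 227 ± 3.67 CPM at 24 h (0.11 ± 0.034, adjusted p = 0.014).

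The 13 glycolytic enzymes all had log2 fold changes above 0 at both times, as did 48.1% of all tested genes at 12 h and 48.4% at 24 h. Of the 13, 8 rose at 12 h and 7 at 24 h. These were 61.5% and 53.8%, against 10.6% and 11.6% of all tested genes. Among genes with a mean of at least 100 CPM, 22.7% and 21.7% rose. Hexokinases trap glucose in the cell by phosphorylating it. HK1 rose by 0.21 ± 0.035 at 12 h (adjusted p = 2.9e-05) and 0.10 ± 0.036 at 24 h (adjusted p = 0.034). HK2 (chr2:74834127-74893359) had 176, 159 and 157 CPM at 0 h, 198, 196 and 207 CPM at 12 h and 199, 203 and 192 CPM at 24 h. All libraries with NRG1 for 12 or 24 h were above all 0 h libraries. HK2 rose by 0.29 ± 0.037 at 12 h and 0.27 ± 0.037 at 24 h (adjusted p = 4.1e-07 and 7.5e-07). GPI, which turns glucose 6-phosphate into fructose 6-phosphate, was 0.18 ± 0.074 and 0.13 ± 0.074 higher without passing (adjusted p = 0.16 and 0.29), and its 24 h libraries had 1229, 1208 and 1019 CPM.

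Of the 3 phosphofructokinases, which commit sugar to glycolysis, the platelet form PFKP rose by 0.26 ± 0.038 at 12 h (adjusted p = 3.5e-06) and 0.16 ± 0.038 at 24 h (adjusted p = 0.0016). PFKL, the liver form, did not pass at 12 h (0.03 ± 0.036, adjusted p = 0.71) and rose by 0.11 ± 0.036 at 24 h (adjusted p = 0.024), and PFKM, the muscle form, did not pass (0.06 ± 0.037 and 0.04 ± 0.037). Per exon length PFKP made up 38.6% ± 1.09 (SD, n = 3) of the summed level of the 3 genes at 0 h, 42.2% ± 1.13 at 12 h and 40.0% ± 0.315 at 24 h. ALDOA, the aldolase gene, was at 74.8 ± 2.26 CPM at 0 h and rose by 0.11 ± 0.037 at 24 h (adjusted p = 0.024), but 42.8% of its exon bases are shared with another annotated gene on the same strand and how such reads were counted was not stated, so its level is uncertain. TPI1, triose phosphate isomerase, did not pass (0.07 ± 0.034 and 0.02 ± 0.034, adjusted p = 0.12 and 0.79).

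The enzymes of the lower part of the pathway, from GAPDH to PKM, all rose at 12 h. GAPDH rose by 0.18 ± 0.045 (adjusted p = 0.0086), PGK1, an ATP-forming kinase, by 0.28 ± 0.046 (adjusted p = 0.00029), PGAM1 by 0.12 ± 0.031 (adjusted p = 0.0040) and PKM, pyruvate kinase, by 0.18 ± 0.041 (adjusted p = 0.0038). ENO1, enolase (chr1:8861000-8879190), had 3432, 3452 and 3593 CPM at 0 h, 4135, 4385 and 4448 CPM at 12 h and 4068, 4070 and 3523 CPM at 24 h. At 24 h the library with 3523 CPM lay within the 0 h range and the other 2 above it. ENO1 rose by 0.31 ± 0.046 at 12 h (adjusted p = 0.00012) and 0.15 ± 0.046 at 24 h (adjusted p = 0.025). At 24 h PGK1 also passed (0.14 ± 0.046, adjusted p = 0.036), and GAPDH (0.12 ± 0.045), PGAM1 (0.07 ± 0.031) and PKM (0.09 ± 0.041) did not, with adjusted p = 0.079, 0.12 and 0.13.

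LDHA, which reduces pyruvate to lactate (chr11:18394560-18408425), had 2818, 2635 and 2789 CPM at 0 h, 3175, 3317 and 3359 CPM at 12 h and 3089, 3027 and 2805 CPM at 24 h. The 12 h libraries were above all others, and the lowest 24 h library lay within the 0 h range. LDHA rose by 0.26 ± 0.035 at 12 h (adjusted p = 7.9e-07) and 0.11 ± 0.035 at 24 h (adjusted p = 0.015). LDHB, the form that favours lactate use, was low at 17.4 ± 0.760 CPM and did not pass (0.05 ± 0.063 and 0.01 ± 0.063), and 33.4% of its exon bases are shared with another annotated gene, so its level is uncertain.

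Per kilobase of exon at 0 h, the most abundant transcript of glycolysis was GAPDH (1308 CPM per kb), followed by ENO1 (670 CPM per kb), TPI1 (573 CPM per kb) and PGK1 (404 CPM per kb). The hexokinases and phosphofructokinases lay between 21.4 and 36.6 CPM per kb. These lengths are the union of all annotated exons of a gene and overstate the length of its main transcript.

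Within the 24 h group 1 library stood apart for these genes. Replicate 3 of 24 h was the lowest of its group in 31 of 39 members and in 13 of 13 glycolytic enzymes, and over all tested genes it was lowest in 34.9%. The median log2 ratio of its glycolytic enzymes to the other 24 h libraries was -0.16. In the other groups, 12 h replicate 1 was lowest in 23 of 39 members and 9 of 13 enzymes, with a median ratio of -0.04. For 0 h replicate 1 the counts were 13 of 39 and 9 of 13, also with a median ratio of -0.04. The summed level of the 13 enzymes was 14818 to 15505 CPM at 0 h and 16957 to 17880 CPM at 12 h. At 24 h it was 17151 and 16978 CPM in replicates 1 and 2 and 15011 CPM in replicate 3. Its total, 51356399 counts, and its TMM factor, 1.01, were within the range of the other libraries, and its share of mitochondrially encoded reads, 5.02%, was the lowest of the 9 libraries (the others 5.24% to 6.09%). The part of these in the result was not tested. Without this library 11 of 13 glycolytic enzymes rose at 24 h, and without 0 h replicate 1 or without replicate 1 or 2 of 24 h the number was 2 each. With all libraries, 11.6% of all tested genes rose at 24 h, and 21.7% of those with a mean of at least 100 CPM. For 12 h against 0 h the count was 8 or 9 whichever library was left out.

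**Figure D3:**
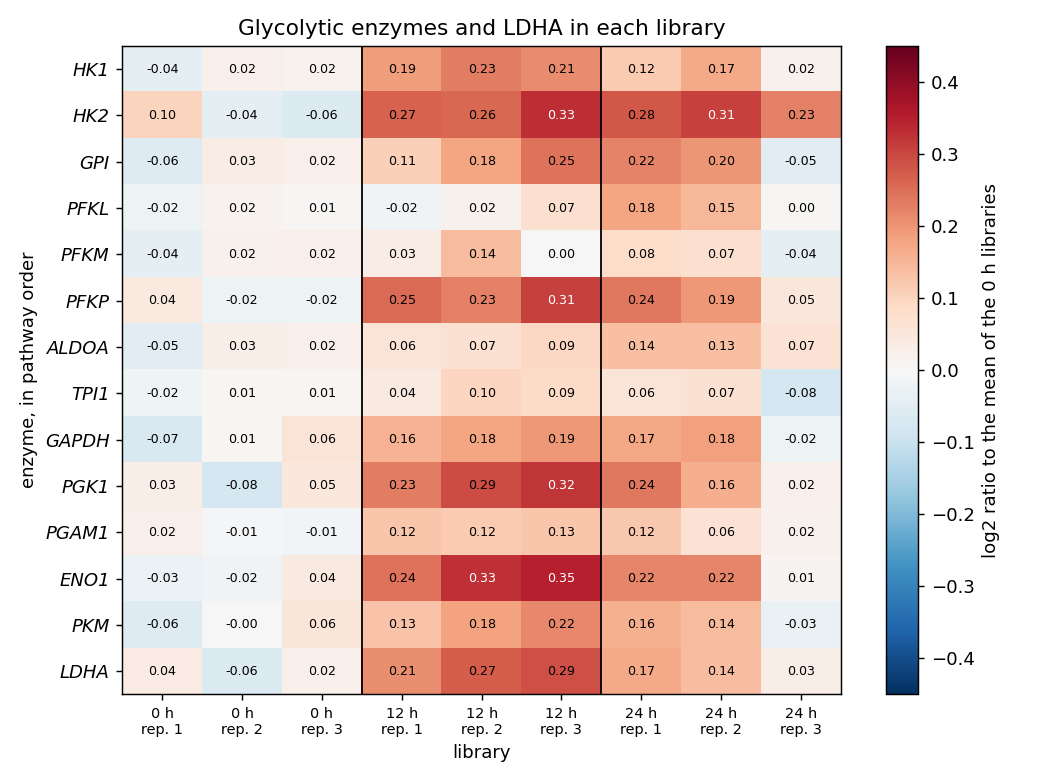
Log2 ratio of each library to the mean of the 0 h libraries (colour and printed value) for the 13 glycolytic enzymes in pathway order and LDHA (rows) in the 9 libraries (columns). The 12 h columns and the 24 h columns of replicates 1 and 2 are mostly red, up to 0.35 for ENO1, and 24 h replicate 3 lies near 0 for most enzymes and at 0.23 for HK2.

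The PFKFB enzymes make and break fructose 2,6-bisphosphate, the strongest activator of phosphofructokinase. PFKFB3, the form with the highest kinase activity (chr10:6144934-6254644), had 102, 104 and 101 CPM at 0 h, 126, 128 and 130 CPM at 12 h and 136, 120 and 113 CPM at 24 h. Every later library was above every 0 h library, with a wider spread at 24 h. PFKFB3 rose by 0.32 ± 0.046 at 12 h and 0.26 ± 0.046 at 24 h (adjusted p = 1.7e-05 and 0.00013), which after CA12 was the largest called rise of a member at 12 h.

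PFKFB4 (chr3:48517684-48562015) had 154, 146 and 145 CPM at 0 h, 178, 192 and 179 CPM at 12 h and 172, 169 and 147 CPM at 24 h. The 12 h libraries were above all others, and the lowest 24 h library lay within the 0 h range. It rose by 0.30 ± 0.049 at 12 h (adjusted p = 0.00021) and did not pass at 24 h (0.13 ± 0.049, adjusted p = 0.070). PFKFB2 (chr1:207034366-207081024) had 30.9, 29.5 and 30.0 CPM at 0 h, 31.7, 34.6 and 32.7 CPM at 12 h and 27.3, 29.1 and 30.7 CPM at 24 h. It passed at neither time against 0 h (0.13 ± 0.050 and -0.05 ± 0.051, adjusted p = 0.067 and 0.54). Per exon length PFKFB4 was the most abundant of the 3 at each time (24.3, 30.0 and 26.6 CPM per kb) and PFKFB2 the least (2.96, 3.24 and 2.85 CPM per kb).

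**Figure D4:**
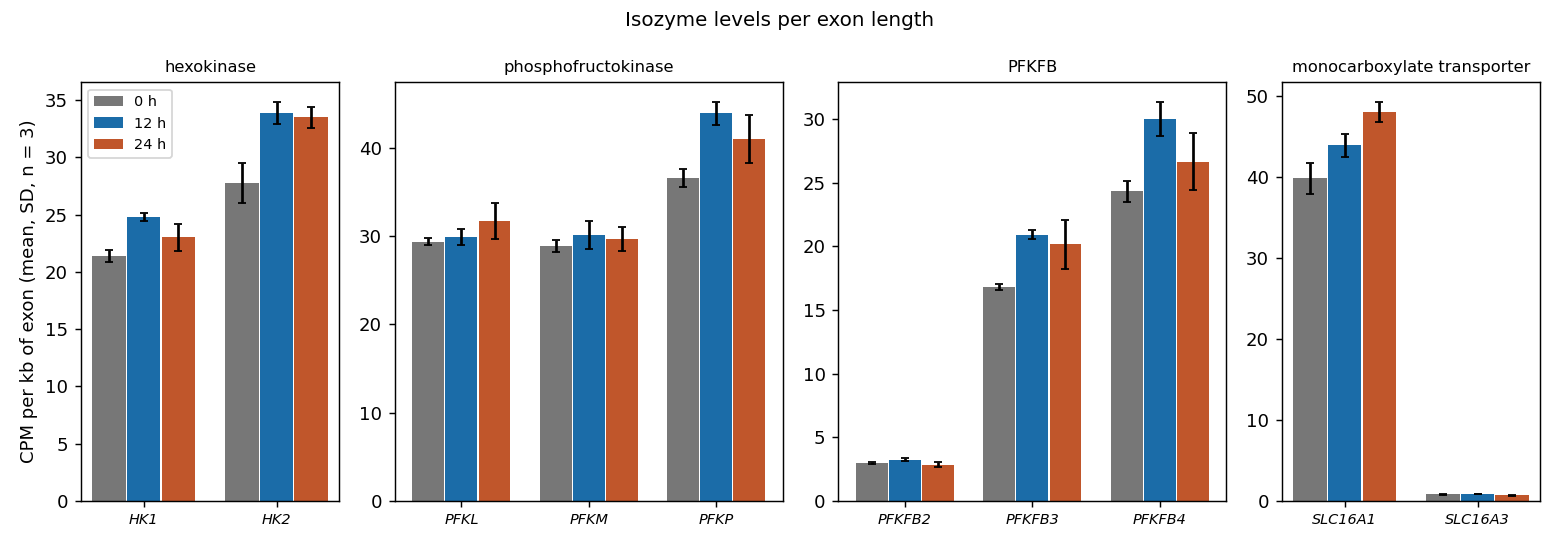
Mean level per kilobase of exon (y axis, CPM per kb, from 0; bars with SD of 3 libraries) of hexokinases, phosphofructokinases, PFKFB enzymes and monocarboxylate transporters at 0, 12 and 24 h. By this measure HK2, PFKP, PFKFB4 and SLC16A1 are the most abundant of their families at each time, with SLC16A1 at 39.8, 43.8 and 48.0 CPM per kb. The lengths are the union of all annotated exons of a gene, and the order within a family rests on them.

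TXNIP and ARRDC4 encode alpha-arrestins that lower glucose uptake and are induced by the glucose-sensing factor MondoA (MLXIP). TXNIP rose by 0.10 ± 0.033 at 12 h (adjusted p = 0.026) and did not pass at 24 h (0.08 ± 0.033, adjusted p = 0.10), and its 12 h call was lost without 0 h replicate 2 and without replicate 1 or 2 of 12 h. ARRDC4 rose by 0.15 ± 0.041 at 12 h (adjusted p = 0.0081) and 0.12 ± 0.041 at 24 h (adjusted p = 0.027). The pentose phosphate pathway makes NADPH and ribose from glucose 6-phosphate. Of its 3 enzymes among the members, TKT, transketolase, rose at both times by 0.15 ± 0.035 and 0.13 ± 0.035 (adjusted p = 0.0024 and 0.0054), and PGD, the second NADPH-forming enzyme, and TALDO1, transaldolase, did not pass (0.08 ± 0.034 and 0.03 ± 0.032 at 12 h, 0.03 ± 0.034 and 0.04 ± 0.032 at 24 h).

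Setting 24 h directly against 12 h tests a difference between the effects at the 2 times. Of 39 members, 3 were higher at 24 h and 4 were lower, against 3.03% of all genes higher and 3.05% lower, and among genes with a mean of at least 100 CPM 7.03% were higher and 8.69% lower, where 2 and 3 of 27 members were. None reached a fold of 1.5 in edgeR, also at an unadjusted p under 0.05 or by DESeq2, against 0.452% of all genes. CA12 (0.18 ± 0.051, adjusted p = 0.032), VEGFA (0.13 ± 0.033, adjusted p = 0.0096) and SLC16A1 (0.13 ± 0.035, adjusted p = 0.018) were higher at 24 h. PFKFB2 (-0.18 ± 0.051, adjusted p = 0.024), NDRG1 (-0.17 ± 0.037, adjusted p = 0.0033), BNIP3 (-0.15 ± 0.037, adjusted p = 0.012) and LDHA (-0.14 ± 0.035, adjusted p = 0.0083) were lower. Among the 7, the call for NDRG1 held in all 22 alternative fits, and each of the others was lost in 3 to 6 of them. PFKFB4 was just outside the threshold, at -0.17 ± 0.049 (adjusted p = 0.0503).

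No glycolytic enzyme passed between 24 h and 12 h in edgeR, with values from -0.15 (ENO1) to 0.09 (PFKL) and a median of -0.06. At an unadjusted p under 0.05, 1 was higher and 4 were lower, and DESeq2 called PGK1 and ENO1 lower. The median was -0.01 without 24 h replicate 3, where 1 enzyme was called higher, -0.09 without 24 h replicate 1, where 3 were called lower, and -0.09 without 24 h replicate 2, where 2 were called lower. Without 0 h replicate 1 or 0 h replicate 2, 1 enzyme was called lower. Over the 3 comparisons together, 3 members (CA12, VEGFA and SLC16A1) rose at both times and were higher again at 24 h. Another 11 rose at both times with no call between them, 7 rose at 12 h with no other call, and 12 passed nowhere. BNIP3 rose at 12 h alone and LDHA at both times, and both were lower at 24 h than at 12 h. PFKL and ALDOA rose at 24 h alone. PFKFB2 was lower at 24 h than at 12 h alone, and NDRG1 was lower at 24 h than at both earlier times.

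Of 9 tested genes for HIF subunits and their regulators, 1 rose (11.1%, near the 10.6% and 11.6% of all genes) and 3 fell at each time. Falls were called for 8.16% of all genes at 12 h and 9.48% at 24 h. CITED2, an inhibitor that competes with HIF1A for its coactivators, was at 132 ± 5.17, 74.8 ± 0.150 and 66.1 ± 3.14 CPM at 0, 12 and 24 h and fell by 0.82 and 1.00 on the log2 scale (SE 0.038 each, adjusted p = 1.5e-18 and 2.9e-21). EPAS1, which encodes HIF-2 alpha, rose from 3.65 ± 0.687 to 5.31 ± 1.07 and 6.03 ± 0.776 CPM (0.54 ± 0.142 and 0.73 ± 0.140, adjusted p = 0.0071 and 0.00030), and its 12 h call was lost without 0 h replicate 3 or 12 h replicate 3. ARNT2 fell at both times (-0.24 ± 0.052 each), and VHL was lower at 12 h (-0.12 ± 0.035, adjusted p = 0.0087) and higher at 24 h than at 12 h (0.11 ± 0.035, adjusted p = 0.049), a call that held in 2 of the 9 fits that left out a library. At 24 h against 0 h VHL did not pass (-0.01, adjusted p = 0.85). HIF1AN fell there beside CITED2 and ARNT2 (-0.13, adjusted p = 0.034), a call that held in 14 of 22 alternative fits. HIF1A itself, at 149 ± 3.58, 140 ± 1.61 and 143 ± 3.30 CPM, did not pass (-0.09 ± 0.033 and -0.06 ± 0.033, adjusted p = 0.055 and 0.23). At 12 h it was called lower in 4 of 22 alternative fits, DESeq2 among them, and at 24 h in 0. These are transcript levels, and HIF1A is known to be set largely at the protein, which was not measured in these libraries.

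Of 27 other HIF targets, 12 rose and 1 fell at 12 h and 8 rose and 1 fell at 24 h. This list and those that follow were also chosen with earlier results of these data known. The rises were 44.4% and 29.6% of the list, against 10.6% and 11.6% of all tested genes. Among genes with a mean of at least 100 CPM, 22.7% rose at 12 h and 21.7% at 24 h. Of all tested genes, 8.16% fell at 12 h and 9.48% at 24 h. ENO2, the neuronal enolase, rose by 0.40 ± 0.039 and 0.31 ± 0.039, and ALDOC, another aldolase, by 0.25 ± 0.047 and 0.27 ± 0.047. BHLHE41, a transcriptional repressor, rose by 0.82 ± 0.242 at 12 h (adjusted p = 0.014) at 0.669 ± 0.0640 to 1.18 ± 0.0644 CPM, and ANGPTL4, an inhibitor of lipoprotein lipase, fell by 1.06 on the log2 scale at 12 h (adjusted p = 0.032) at 0.699 ± 0.304 to 0.335 ± 0.0820 CPM, so both rest on few reads. TMEM45A fell at 24 h (-0.28 ± 0.053, adjusted p = 0.00011). BHLHE40, the paralogue of BHLHE41, had 94.6 ± 1.56, 122 ± 4.27 and 104 ± 6.57 CPM and was lower at 24 h than at 12 h (-0.24 ± 0.039, adjusted p = 9.9e-05), and 6 of the 27 genes were lower in that comparison. These 6 were 22.2% of the list, against 3.05% of all tested genes and 8.69% of those with a mean of at least 100 CPM.

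Of 28 genes of pyruvate entry and the citric acid cycle, 11 rose and 2 fell at 12 h and 5 rose and 2 fell at 24 h. The rises were 39.3% and 17.9% of the list, against 10.6% and 11.6% of all tested genes. Among genes with a mean of at least 100 CPM, 22.7% rose at 12 h and 21.7% at 24 h. Of all tested genes, 8.16% fell at 12 h and 9.48% at 24 h. IDH3A, a subunit of the NAD-dependent isocitrate dehydrogenase, rose by 0.26 ± 0.045 and 0.27 ± 0.045. FH, fumarase, rose at 12 h (0.19 ± 0.036, adjusted p = 0.00011) and was lower at 24 h than at 12 h (-0.17 ± 0.036, adjusted p = 0.0016). IDH3G rose at 24 h (0.18 ± 0.049, adjusted p = 0.0079), PC, pyruvate carboxylase, fell at 12 h (-0.18 ± 0.045, adjusted p = 0.0049) and SUCLG2 passed as lower at 24 h (-0.09 ± 0.033, adjusted p = 0.038) but in 1 of the 9 fits that left out a library. MPC2, a subunit of the mitochondrial pyruvate carrier, was at 193 ± 9.04, 177 ± 1.00 and 145 ± 3.69 CPM, and fell at both times (-0.13 ± 0.034 and -0.41 ± 0.035, adjusted p = 0.0070 and 1.1e-11) with no overlap between 24 h and the earlier times. Exons of MPC2 and IDH3G overlap genes on the opposite strand over 21.8% and 9.89% of their bases. These genes, DCAF6 and SSR4, had more reads, so the levels of MPC2 and IDH3G are uncertain.

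Of 7 other pentose phosphate genes, 2 rose at 12 h, and 2 rose and 1 fell at 24 h. The rises were 28.6% of the list at each time, against 10.6% and 11.6% of all tested genes. Among genes with a mean of at least 100 CPM, 22.7% rose at 12 h and 21.7% at 24 h. Of all tested genes, 9.48% fell at 24 h. RPIA, ribose 5-phosphate isomerase, rose at 12 h (0.29 ± 0.081, adjusted p = 0.013), and of the ribose 5-phosphate kinases PRPS2 rose (0.14 ± 0.040) and PRPS1 fell (-0.16 ± 0.035) at 24 h. Of 9 tested genes for glucose-sensing factors and gluconeogenesis, 1 rose and 2 fell at each time, and 11.1% is near the share of all genes that rose. Falls were called for 8.16% of all genes at 12 h and 9.48% at 24 h. G6PC3, a glucose 6-phosphatase, rose by 0.16 ± 0.041 and 0.18 ± 0.041, and SLC2A12, a glucose transporter, fell by 0.37 and 0.46 on the log2 scale (adjusted p = 0.0023 and 0.00016). Exons of SLC2A12 overlap TBPL1, which had more reads, on the opposite strand over 51.2% of their bases, so the level of SLC2A12 is uncertain. MLXIP, which encodes MondoA, fell at both times (-0.12 ± 0.034 and -0.18 ± 0.034, adjusted p = 0.014 and 9.6e-05). Of the 12 h calls in these lists, VHL, BHLHE41, ANGPTL4 and RPIA lost theirs without 0 h replicate 1 and MPC2 without 0 h replicate 2, VHL also without 12 h replicate 1, ANGPTL4 without 12 h replicate 2 or 3 and RPIA without 0 h replicate 3 or 12 h replicate 2. The 12 h call of MLXIP was lost without 12 h replicate 1 or 2, and the 24 h call of IDH3G without 24 h replicate 2.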

How the data were processed

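Whole-genome mRNA expression of LNCaP cells was measured by paired-end sequencing on the Illumina NovaSeq from TruSeq mRNA libraries. Per the study's methods, adapters were trimmed with Cutadapt, reads were aligned to GRCh38.p13 with STAR and counted per GENCODE gene with featureCounts. The strand setting and the treatment of reads that fit several genes are not given in the sources used here. The authors deposited raw read counts, 1 column per library, with no normalization and no pooling; 14 empty columns were not used. The methods state that 1 LNCaP replicate at time 0 was left out for quality without naming its treatment. The paper's figure legends give 3 replicates for the NRG1 sequencing and a range reaching below 3 for cells treated with asporin. By these legends the replicate left out was not an NRG1 library. All 3 of the 0 h libraries were used. Without molecular identifiers, the depth of 47016302 to 60985825 counts gives precision for counting error only.

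Counts were filtered with filterByExpr (19250 genes), scaled by TMM and tested with edgeR 4.0.16 (robust quasi-likelihood, R 4.3.3) on all 9 libraries without covariates, with Benjamini-Hochberg adjustment over all tested genes. A call has an adjusted p of at most 0.05. The standard error of a fitted log2 fold change was taken from its F statistic, and the edgeR steps were tested on simulated data. Members and lists, including the lists of other pathway genes, were chosen with earlier results of these data known. Described in every library were members with a called fold of at least 1.5 or among the 5 largest called rises or falls of a comparison, and of the other genes those with a called fold of at least 1.5 and the 2 largest called rises and falls of each list. HIF1A and HIF1AN are outside this rule. HIF1A was named for its place in the pathway, and HIF1AN to account for the falls at 24 h. A gene of the other lists that the rule names is not reported here. Alternatives were DESeq2 1.42.0, other scalings and filters, fewer libraries, a replicate block, added pseudogene counts, thinned counts, other thresholds and leaving out each library, and, chosen after seeing the data, removal of trends with GC content and length and the class of genes with at least 100 CPM. Shared exon bases were read from GENCODE v44, in which 37 of the 41 members have the coordinates of the deposited table. Promoters are RefSeq windows of GRCh38.p14.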

Additional observations from a re-analysis of the deposited data

Results flagged for a closer look

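For 7 members the effect at 24 h differed from that at 12 h when the later time was tested directly against the earlier, a fit in which the 0 h libraries enter the spread but not the fold (edgeR, adjusted p of at most 0.05 over 19250 genes). Of all tested genes, 6.08% were called in this comparison in either direction. Among genes with a mean of at least 100 CPM 15.7% were called, where 5 of 27 members were. The log2 difference was 0.18 for CA12, 0.13 for VEGFA and 0.13 for SLC16A1, and all 3 libraries at 24 h were above all 3 at 12 h for each of these. It was -0.18 for PFKFB2, -0.17 for NDRG1, -0.15 for BNIP3 and -0.14 for LDHA, and all 3 libraries at 24 h were below all 3 at 12 h for each of these. Over all tested genes, 12.1% were separated upward in this way and 12.3% downward, and the members named here were picked by the same comparison. No group had 4 or more libraries, so no single library was tested as an outlier.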

How the results depend on the processing

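At 12 h, 18 of the 23 called members were called in every one of 22 alternative fits, at 24 h 6 of 18 (VEGFA, CA12, SLC16A1, HK2, PFKP and PFKFB3), and between 24 h and 12 h 1 of 7 (NDRG1); no called member changed direction. With a fold of at least 1.5 added, 0 members passed at 12 h, 1 at 24 h and 0 between the times, and at an adjusted p of at most 0.01 19, 7 and 3 did. Between the times, 11 members passed with all genes that had a count and 11 with only the 6 libraries compared, against 7. Leaving out 1 library at a time gave 20 to 24 called members at 12 h, 8 to 22 at 24 h and 1 to 11 between the times. The count at 24 h, 18 with all libraries, was 8 without 24 h replicate 2, 9 without 24 h replicate 1 and 11 without 0 h replicate 2; between the times it was 1 without 12 h replicate 3, 3 without 12 h replicate 1, 4 without 12 h replicate 2 and 11 without 0 h replicate 1. The cause was not tested. DESeq2 gave 22, 19 and 10 called members, and removal of the GC and length trends 22, 15 and 8. GPI, not called at 12 h, had an adjusted p of 0.0016 with all genes that had a count and 8.9e-05 without 24 h replicate 3.

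Replicate numbers did not pair the libraries: deviations of same-numbered libraries correlated between -0.037 and 0.029, and 2 of 9 libraries correlated best with a library of their own number. With the replicate number as a block, 23, 18 and 9 members were called. Depth limited CA9 and ADM, with 334 and 401 reads over 9 libraries.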
